A study of Mus musculus with 18 samples.

Results

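Pitx1 is a homeodomain transcription factor of the bicoid type that hindlimb buds express and forelimb buds do not, and it is known for giving the hindlimb its identity. Gene deserts are long stretches with no protein-coding gene, and the deserts beside developmental genes are known to hold distal enhancers, which act on a flanking gene over large distances. A site was taken here when the top of a Pitx1 peak, its summit, lay in such a desert and no summit of Tbx5 lay near it. Tbx5 is the T-box factor that starts the forelimb bud.

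The Pitx1 map came from hindlimb buds at e11.5 and the Tbx5 map from forelimb buds at e10.5, both of wild-type CD1 mice and each pulled down with a homemade antibody and sequenced as paired ends. Each factor is 1 sample of the 18 in the series, so no value has a replicate error, and limb, stage, factor and antibody differ together between the maps and cannot be told apart. The longer Pitx1 list holds 54941 summits, of which 17783 (32.4%) are also in a second deposited list. A site had to be in both lists, over 100 kb from the body of any protein-coding gene, and without a Tbx5 summit within 1000 bp. Of the 10157 Pitx1 summits in deserts, 3933 were in the second list. Of these, 820 had a Tbx5 summit within 1000 bp, and the remaining 3113 are the sites described here. Over the whole second list 82.4% of summits had no Tbx5 summit within 1000 bp.

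The sites were chosen by measured values, namely the Pitx1 calls, membership of the second list and the Tbx5 calls, so neither being listed nor lacking Tbx5 is a finding. The site closest to a gene was 100135 bp away, and the nearest candidate that missed lay 99942 bp away. The site closest to a Tbx5 summit was 1016 bp from it, and the nearest that missed was 987 bp from one. The 185 sites between 100 and 110 kb from a gene had a median Pitx1 score of 18.1, against 17.4 for the 151 candidates between 90 and 100 kb. The score is the value deposited with the summit, taken here as the −log10 q of the peak. The 81 sites between 1000 and 2000 bp from a Tbx5 summit had a median of 21.3, and the 50 desert summits of the second list between 500 and 1000 bp from one had 37.3.

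Sequence was read for the few sites that fall in a promoter window, since those carry letters in the RefSeq tables used here. Deserts hold no protein-coding gene, so these are starts of long noncoding RNA (lncRNA) genes. A window runs from 250 bases before a gene's start to 50 after it, on GRCm38.p6, the assembly that mm10 represents. Of the 3113 sites, 14 (0.450%, exact 95% interval 0.246 to 0.753) lay in 16 windows of 15 genes. The 5 windows below are the 1 with the highest-scoring site and all 4 that hold TAATCC, the core of the sequence bicoid-type homeodomains bind, or its reverse complement GGATTA. Capitals mark that match, and each sequence reads 5′ to 3′ on the gene's strand.
Gm35217: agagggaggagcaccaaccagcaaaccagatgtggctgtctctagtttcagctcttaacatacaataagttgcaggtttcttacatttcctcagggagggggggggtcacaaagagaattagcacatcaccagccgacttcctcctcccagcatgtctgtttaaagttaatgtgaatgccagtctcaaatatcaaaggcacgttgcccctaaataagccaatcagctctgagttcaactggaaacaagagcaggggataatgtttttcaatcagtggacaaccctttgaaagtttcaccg
Gm36817: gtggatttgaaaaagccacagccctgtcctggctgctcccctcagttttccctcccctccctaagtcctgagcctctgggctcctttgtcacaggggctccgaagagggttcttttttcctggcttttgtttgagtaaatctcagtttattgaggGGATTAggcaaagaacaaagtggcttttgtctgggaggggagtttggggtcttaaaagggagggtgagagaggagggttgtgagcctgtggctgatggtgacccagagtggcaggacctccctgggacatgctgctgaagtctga
Gm6634: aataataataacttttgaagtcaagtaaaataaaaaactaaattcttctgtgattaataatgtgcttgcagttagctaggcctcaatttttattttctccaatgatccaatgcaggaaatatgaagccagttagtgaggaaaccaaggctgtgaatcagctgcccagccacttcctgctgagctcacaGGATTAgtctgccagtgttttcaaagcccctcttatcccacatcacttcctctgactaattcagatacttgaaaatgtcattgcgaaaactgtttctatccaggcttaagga
Gm40016: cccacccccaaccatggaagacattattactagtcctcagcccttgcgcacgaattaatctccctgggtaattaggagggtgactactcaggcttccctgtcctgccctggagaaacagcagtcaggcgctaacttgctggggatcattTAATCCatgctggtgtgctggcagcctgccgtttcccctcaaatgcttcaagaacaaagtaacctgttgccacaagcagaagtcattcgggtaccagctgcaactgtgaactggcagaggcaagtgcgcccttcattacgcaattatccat
Gm27572: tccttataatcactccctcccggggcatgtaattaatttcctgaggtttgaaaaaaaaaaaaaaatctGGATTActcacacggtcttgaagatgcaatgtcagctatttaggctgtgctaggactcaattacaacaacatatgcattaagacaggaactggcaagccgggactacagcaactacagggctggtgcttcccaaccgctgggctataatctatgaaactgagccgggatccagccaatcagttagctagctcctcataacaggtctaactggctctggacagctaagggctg

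Gm35217, at chr14:28798366-28798665 on the minus strand, held the strongest of these sites, with a score of 204 in the desert between Wnt5a and Cacna2d3, and its window has no match. Wnt5a encodes a signal that drives limb outgrowth. In Gm36817, at chr7:83037128-83037427 on the plus strand, the match begins at base 156 and lies 17 bp from the summit, whose score was 130.4. In Gm6634, at chr3:70807242-70807541 on the minus strand, it begins at base 189 and lies 15 bp from a summit that scored 48.2. Gm40016, at chr11:63464014-63464313 on the minus strand, has its match at base 150, 57 bp from a summit of 12.9. Gm27572, at chr13:108498537-108498836 on the minus strand, has it at base 69, 48 bp from a summit of 2.45.

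Thus 4 of the 16 windows (25%, exact 95% interval 7.27 to 52.4) held the letters on either strand. The share was 7.06% over all 32851 promoter windows, 8.24% over the 11589 windows of genes that are not protein-coding and 22.3% over the 837 windows with any Pitx1 summit of the second list. With the 16 windows counted as separate, the interval for the desert sites takes in 8.24% and 22.3% and begins just above 7.06%. They hold 14 sites, because overlapping windows of Gm34113, and those of Gm35940 and LOC115486408, share a summit. These overlapping windows have no match, and an interval by site was not computed. A match describes letters in a window and is not a measured binding position.

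Deserts were defined as the stretch between neighbouring protein-coding genes less 100 kb at each end. There were 1689 bounded by a gene on both sides, with a median length of 219 kb and 786 Mb in all. The sites fell in 776 of them, and 913 held none. Chromosome X has 144 of the 1689 and 26 of the sites, and chromosome Y has 152 and no sites. A single site was found in 234 deserts, 2 to 4 sites in 314, 5 to 9 in 164 and 10 or more in 64. Those 64 deserts held 944 sites, or 30.3% of all. Over all deserts the density was 3.96 sites per Mb, and it was 11.4 per Mb in the 64. The number of sites followed desert length loosely, with Spearman's rho of 0.529 across 1689 deserts, which share 1 sample per factor.

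**Figure D1:**
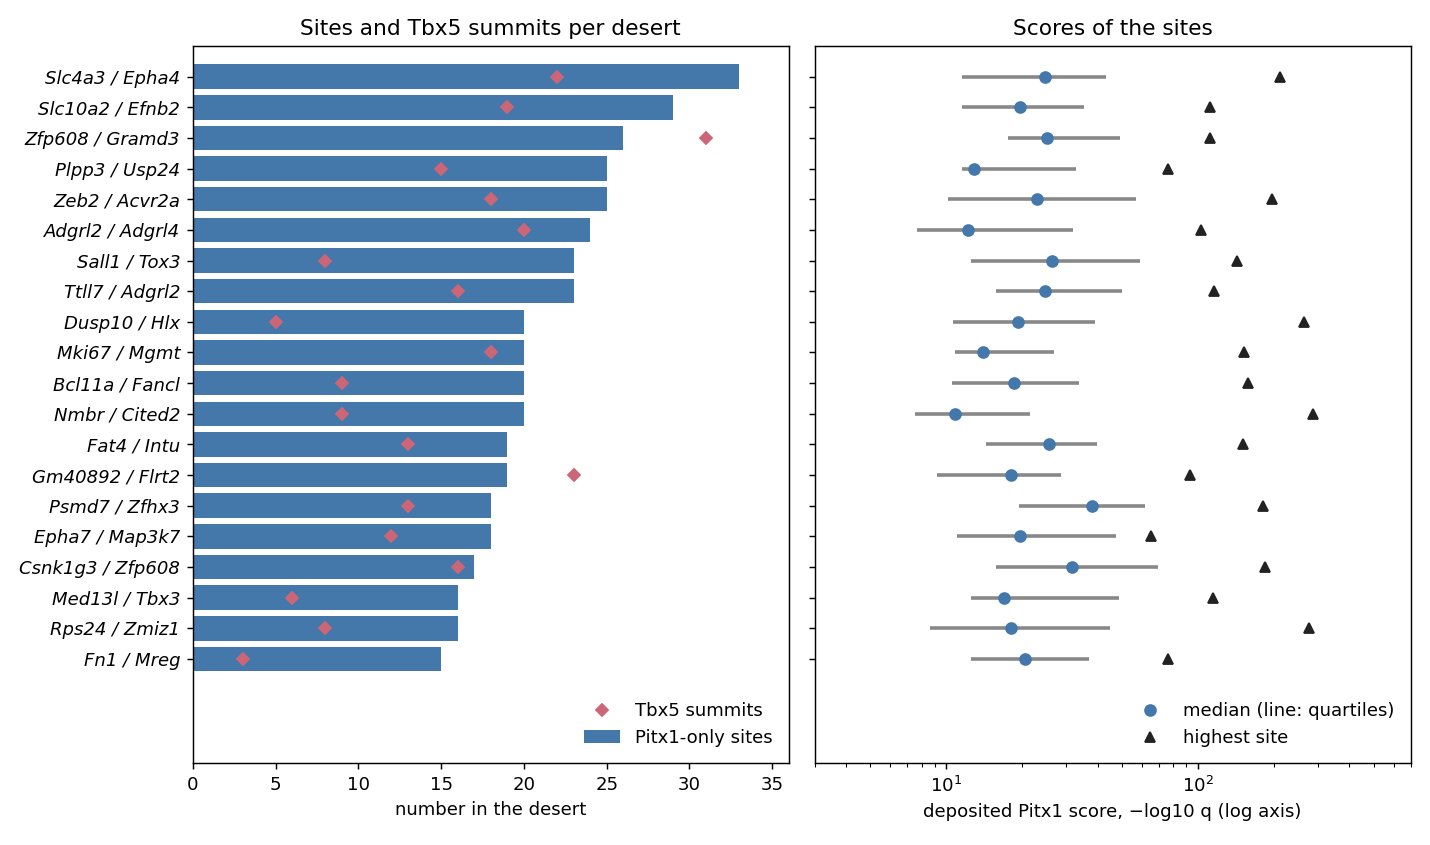
The 20 deserts with the most sites, named by their flanking genes. Left, bars give the number of Pitx1-only sites and diamonds the number of Tbx5 summits in the desert. Right, circles give the median deposited score, grey lines the quartiles and triangles the highest site, on a log axis. Counts run from 33 to 15, and 18 of the 20 deserts hold fewer Tbx5 summits than sites. The deserts were ranked by sites, and the Tbx5 list is the shorter, with 10273 summits against 17783 in the second Pitx1 list.

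The 20 deserts with the most sites held 426 of them, 13.7% (exact 95% interval 12.5 to 14.9), in 3.98% of the desert length. First was the desert between Slc4a3, an anion exchanger, and Epha4, an ephrin receptor of the limb bud and nervous system, with 33 sites in 1608 kb of chromosome 1. Second was the one between Slc10a2, a bile acid transporter, and Efnb2, which encodes an ephrin ligand, with 29 sites in 3312 kb of chromosome 8. The deserts on both sides of Zfp608, a zinc finger protein gene, were among the 20. Zfp608 to Gramd3 held 26 sites and Csnk1g3 to Zfp608 held 17. Likewise Adgrl2, which encodes an adhesion receptor of the latrophilin family, had 23 sites on the side of Ttll7 and 24 on the side of Adgrl4.

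The other deserts of the 20 lay beside genes of several kinds. Transcription factors flanked Zeb2 to Acvr2a (25 sites, with an activin receptor at the other end), Sall1 to Tox3 (23), Bcl11a to Fancl (20), Dusp10 to Hlx (20), Psmd7 to Zfhx3 (18) and Med13l to Tbx3 (16). Sall1 and Tbx3 are limb bud regulators in which human mutations cause limb malformations. Cited2, a transcriptional coregulator, flanked 20 sites on the side of Nmbr, and Zmiz1 flanked 16 on the side of Rps24. Receptors and adhesion proteins flanked Epha7 to Map3k7 (18), Gm40892 to Flrt2 (19) and Fat4 to Intu (19). The rest were Plpp3 to Usp24 (25), Mki67 to Mgmt (20) and Fn1 to Mreg (15), where Fn1 encodes fibronectin.

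The fullest deserts differed in how their sites were laid out. Between Slc4a3 and Epha4 they covered 1603 kb, from position 75662774 to 77265867. Of these 33 sites, 14 were nearer to Slc4a3 and 19 nearer to Epha4. The scores ran from 3.83 to 212, with a median of 24.7, and 6 sites scored 50 or more. The strongest, at position 75844841, lay 285 kb from Slc4a3 and 1522 kb from Epha4, and the next, at 150.2, lay at position 75748900. A stretch of 423 kb without sites, the longest of this desert, separates the 14 sites on the Slc4a3 side from the 19 on the Epha4 side.

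**Figure D2:**
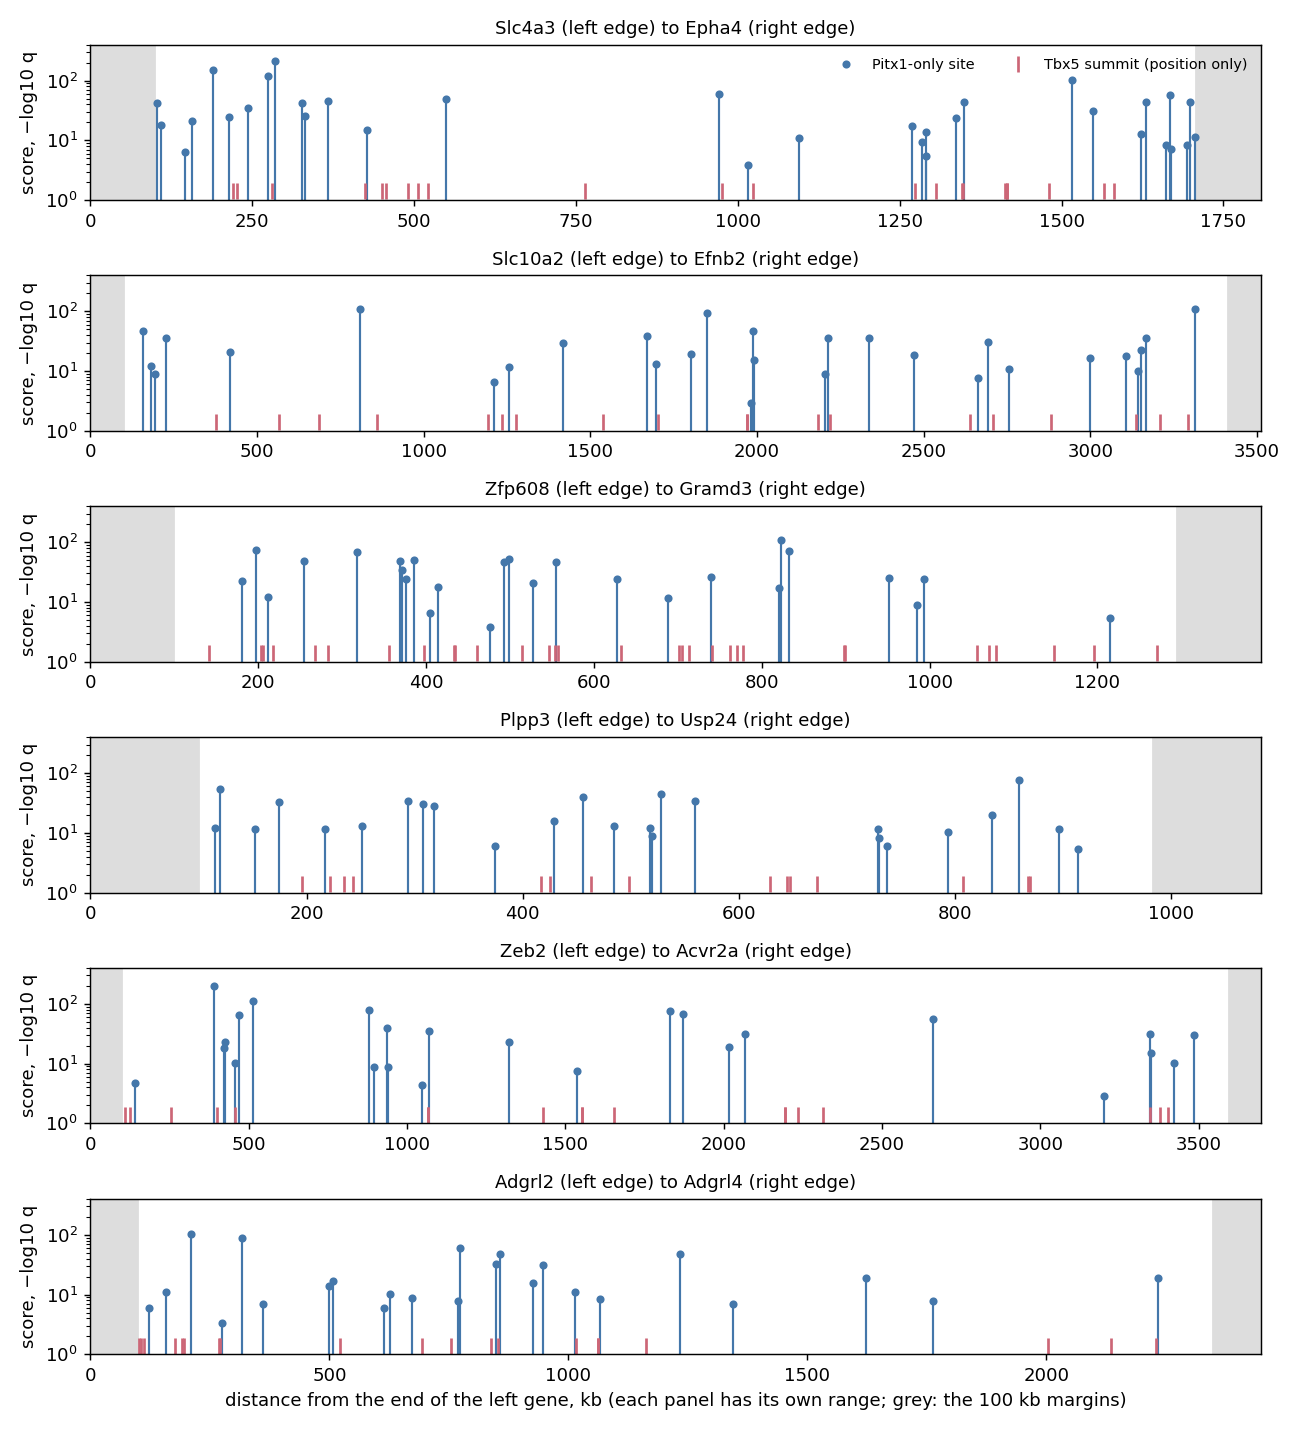
Pitx1-only sites along the 6 deserts that hold the most. The x axis is the distance from the end of the left gene in kb, each panel with its own range. Stems give the deposited score on a log axis, red ticks mark Tbx5 summits by position only, and grey marks the margins of 100 kb at each gene. In Slc4a3 to Epha4 the 33 sites lie in a group at either end with few between.

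Some deserts had long stretches without a site, up to 1029 kb between Nmbr and Cited2, 613 kb between Bcl11a and Fancl and 593 kb between Zeb2 and Acvr2a. In Dusp10 to Hlx, by contrast, no gap between neighbouring sites exceeded 59.6 kb. The side on which the sites lay differed from desert to desert. Between Adgrl2 and Adgrl4, 19 of 24 sites were nearer to Adgrl2. Between Bcl11a, which encodes a transcriptional repressor, and Fancl, 16 of 20 were nearer to Bcl11a. Between Rps24 and Zmiz1, 14 of 16 were nearer to Zmiz1, while Dusp10 to Hlx was even, with 10 sites nearer to each. The strongest site was often far from both genes. Between Nmbr and Cited2 it scored 287 and lay 648 kb from Cited2 and 2303 kb from Nmbr.

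Strong sites lay near the ends of some deserts and near the middle of others. Between Slc10a2 and Efnb2 the highest score, 111, occurred at chromosome 8 position 5914634, 809 kb from Slc10a2, and again at 8420898, 196 kb from Efnb2. A site of 94.1 lay near the middle at 6954476 and had the desert's highest further score, 840.3. Between Zeb2, which encodes a zinc finger repressor of mesenchymal and neural cells, and Acvr2a, 6 sites from chromosome 2 position 45507810 to 45630515 lay 390 to 513 kb from Zeb2 and included scores of 197, 111 and 64.1. Farther into that desert, sites of 77.6 and 68.5 lay 1829 and 1872 kb from Zeb2.

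Between Nmbr and Cited2 most sites were weak, with an upper quartile of 21.5, and 4 sites stood above the rest at 287, 153, 123 and 66.3. All 4 lay on the side of Cited2, between 648 and 1102 kb from it. Between Rps24 and Zmiz1 the highest site, at 276, was also the one farthest from Zmiz1, at 557 kb, and 6 sites lay in Zmiz1os1, an lncRNA gene beside Zmiz1. Between Zfp608 and Gramd3, 18 of 26 sites were nearer to Zfp608, but the highest, 111, lay 572 kb from Gramd3 and 823 kb from Zfp608.

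In the desert between Sall1 and Tox3, 8 of the 23 sites scored 50 or more. The highest, 144, lay at chromosome 8 position 89498327, 454 kb from Sall1. A score of 136 followed at 89535908, 118 at 89770915 and 107.5 at 89632739. This desert also held a group of 5 sites in 26.6 kb, each within 10 kb of the next. None of its Pitx1 summits in the second list had a Tbx5 summit within 1000 bp, although 8 Tbx5 summits lay elsewhere in the desert. Between Med13l and Tbx3, 4 of 16 sites scored 50 or more. The strongest of them, 115, lay 495 kb from Tbx3, and the site closest to Tbx3, at 114 kb, scored 71.9.

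Between Psmd7 and Zfhx3 the sites were both dense and strong. The 18 sites had a median score of 37.9, the highest median of the 20 deserts, and 7 scored 50 or more. They lay a median of 4.46 kb from the next site, against 71.5 kb between Gm40892 and Flrt2. Their median distance to a Tbx5 summit was 10.6 kb, which was also the shortest of the 20. Nmbr to Cited2 had the lowest median score, 10.9.

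Ranked by density among deserts with at least 5 sites, shorter deserts came first. Fn1 to Mreg held 49.0 sites per Mb, followed by Gas1 to Dapk1 with 44.6, Bbs9 to Bmper with 44.5 and Dusp10 to Hlx with 44.3. Gas1 encodes a coreceptor for hedgehog signals and Bmper a secreted regulator of BMP signals. Next were Ackr3 to Cops8 with 37.4, Haao to Zfp36l2 with 37.1, Gmds to Mylk4 with 37.0, Psmd7 to Zfhx3 with 36.7 and Dusp6 to Csl with 34.5. Dusp6 encodes a phosphatase induced by FGF signals in the limb bud. The last of the 10, A530021J07Rik to Tmc3, held 34.1 per Mb and was the sole one of the 10 with no Tbx5 summit. Its 7 sites had a median score of 59.8.

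Between Gas1 and Dapk1 the 10 sites scored from 5.92 to 128, and the next highest were 106 and 86.9. The highest, at chromosome 13 position 60296634, lay 119 kb from Gas1, and the site of 106 at 60417568 lay in a group of 5 sites that spans 25.3 kb. Between Dusp6 and Csl, 5 of the 10 sites lay 103 to 126 kb from Dusp6, with scores of 4.32, 83.4, 17.4, 100.1 and 16.6 in order of position. Long deserts could also be empty. Of the 227 deserts over 1000 kb, 53 held no site and 29 held 10 or more. The longest without a site was Cntnap5b to Cdh20, 4078 kb between a pair of neuronal adhesion genes, in which the longer list had 5 Pitx1 summits.

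None of the 10 highest-scoring sites lay in the 20 fullest deserts. The highest score, 629.7, was at chromosome 1 position 194108314 between Camk1g and Plxna2, a semaphorin receptor gene, 511 kb from Plxna2. It had rank 3 among all 54941 Pitx1 summits, and the other 8 sites of that desert scored between 6.49 and 56.5. The second, 581, was at chromosome 2 position 75252958 between Mtx2 and Gm50595, inside the lncRNA gene 2600014E21Rik. This desert lies beside the Hoxd genes and is known to hold enhancers that act on them in the limb. Its other 11 sites scored from 6.49 to 161.

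The next 5 sites by score lay in deserts with a known skeletal or limb gene at 1 end, and 4 of the 5 were nearer to the gene at the other end. A score of 578 was found at chromosome 15 position 51130552, 656 kb from Eif3h and 239.9 kb from Trps1, a zinc finger repressor of cartilage whose loss causes skeletal dysplasia. At chromosome 1 position 120962083, 342 kb from Insig2 and 354 kb from En1, the homeobox gene of ventral limb ectoderm, the score was 527. A score of 452 was found at chromosome 11 position 19740823, 184 kb from Spred2 and 721 kb from Meis1, a homeobox gene of the proximal limb. At chromosome 6 position 143499636 the score was 407, 291 kb from Etnk1 and 329 kb from Sox5, which acts in cartilage. At chromosome 14 position 105572454 it was 377, 263 kb from Ndfip2 and 319 kb from Spry2, which restrains FGF signals.

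The rest of the 10 highest were beside genes of the nervous system or with less known limb roles. Slitrk1 to Slitrk6 held a site of 377, Dok5 to Cbln4 a site of 356 and Efcab1 to Ube2v2 a site of 338. The second list carries a further deposited score, which no label or header explains, of at least 50.02 in the sites. By that score the first site was that of En1 to Insig2, with 2373. Camk1g to Plxna2 with 1701, Etnk1 to Sox5 with 1641 and Meis1 to Spred2 with 1593 followed. These 4 sites were in the top 10 by both scores. Over the 3113 sites the scores had a Spearman's rho of 0.690, a description over sites of 1 sample. Whether the further score draws on another library is not stated.

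Sites were denser beside developmental genes. The 8 lists of such genes hold 332 genes of the table, and 222 deserts had a member of a list as a flanking gene. The lists were chosen with earlier results of these data known. The comparisons by list, here and below, are therefore descriptions and give no independent support. They held 851 sites (27.3%), at 8.26 per Mb, against 3.31 in the other deserts. The median desert beside a listed gene had 6.53 sites per Mb, while the median over the others, with chromosomes X and Y included, was 0. Of the 64 deserts with 10 or more sites, 19 (29.7%, exact 95% interval 18.9 to 42.4) had such a flank, against 62 of the 913 without sites (6.79%, 5.25 to 8.62). The neuronal list described below had the same order, with 11 of the 64 (17.2%) and 33 of the 913 (3.61%). The full deserts were longer, with a median of 925 kb against 117 kb for those without sites. Tbx5 summits were also denser beside genes of the developmental lists, with 6.94 per Mb against 2.39. The comparisons here and by list below kept the deserts of chromosomes X and Y, which hold few sites and few Tbx5 summits. None was repeated without those deserts.

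**Figure D3:**
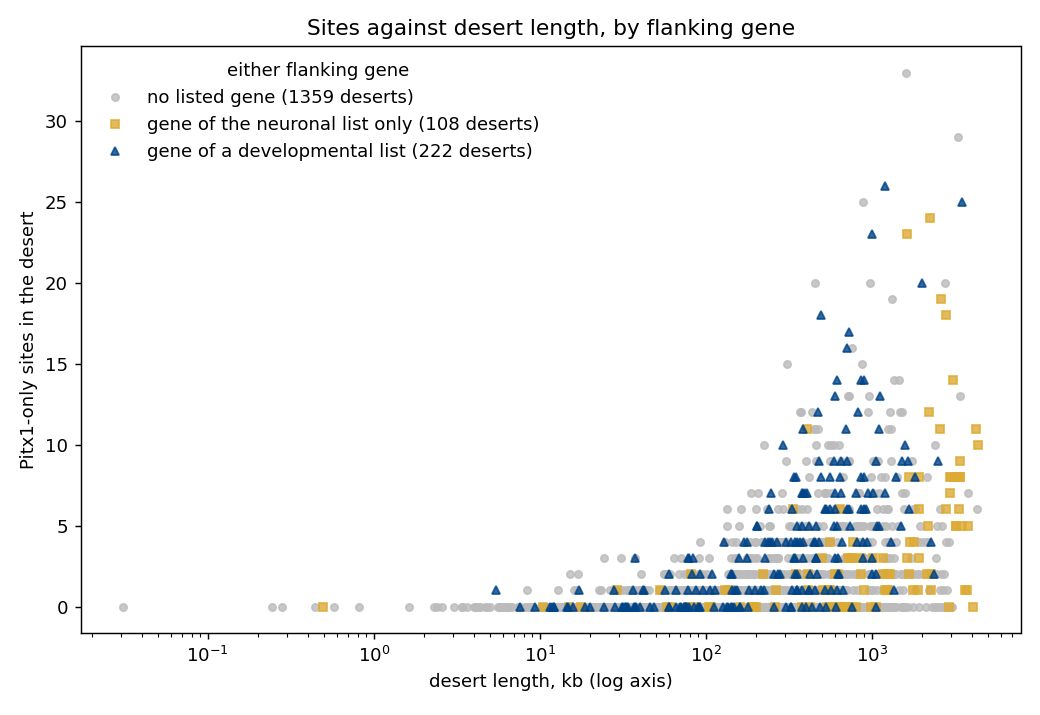
Sites per desert against desert length for 1689 deserts, the length on a log axis. Triangles are deserts with a gene of a developmental list at either end, squares those with a gene of the neuronal list alone, and grey circles the rest. At a given length the triangles tend to lie above the squares, and deserts of every kind reach 0.

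Limb bud transcription factors had the densest deserts of all 9 lists. Their 31 deserts held 155 sites, 13.2 per Mb against 3.82 elsewhere, and 25 of the 31 held at least 1. After Sall1 and Tbx3 came Shox2, a homeobox gene of proximal limb bones, with 12 sites on the side of Veph1. The following have fewer than 10 sites and were named after their values were seen. Osr1 had 9 sites toward Nt5c1b and 8 toward Ttc32, Meis1 had 9 toward Spred2 and Ebf1 8 toward Clint1. Tbx18 had 7 on each side, Msx2 7 toward Drd1, and Hand2, an early regulator of limb polarity, 6 toward Fbxo8. Tbx5 summits in the deserts of this list also were dense, 13.6 per Mb against 2.83.

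Genes of limb signalling followed, with 104 sites in 31 deserts (11.4 per Mb). Fgf9 had 12 sites toward 1700129C05Rik, Spry2 11 toward Ndfip2 and Dusp6 10 toward Csl. Cartilage and skeleton genes had 56 sites in 19 deserts (7.49 per Mb). Of these, 14 lay between Gm11677 and Sox9, the gene that starts cartilage and whose desert is known for distant enhancers, and 11 between Trps1 and Eif3h. Median scores there were 29.6 and 29.9. Muscle precursor genes had 28 sites in 9 deserts (5.59 per Mb).

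Lists of cell types outside the limb mesenchyme were not without sites. Ectoderm and apical ridge genes had 18 sites in 8 deserts (9.38 per Mb), 8 of them between En1 and Insig2. Endothelium and blood genes had 22 sites in 4 deserts (7.87 per Mb), of which 13 lay between Cdh11 and Cdh5. Cdh11 marks mesenchyme and Cdh5 endothelium, so a desert can carry more than 1 label. Other developmental transcription factors had 481 sites in 120 deserts (7.52 per Mb), among them Zfp703 (14 toward Thap1), Nr5a2 (14 toward Ptprc), Sox4 (13 toward Prl5a1), Tle4 (11 toward Psat1) and Myc (10 toward Gsdmc). Genes of neuronal adhesion and synapses, whose deserts are long (median 862 kb), had 395 sites in 110 deserts, 2.64 per Mb against 4.27 elsewhere. Beside Adgrl2, Flrt2 and Epha7, the fullest of them were those of the protocadherin gene Pcdh18, with 14 sites toward Pabpc4l and 11 toward Slc7a11, and Cdh11. Slitrk1 had 11 toward Trim52, Pcdh17 11 toward Olfm4, and Pcdh20 to Pcdh9, 4342 kb long, held 10 with a median score of 48.7.

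**Figure D4:**
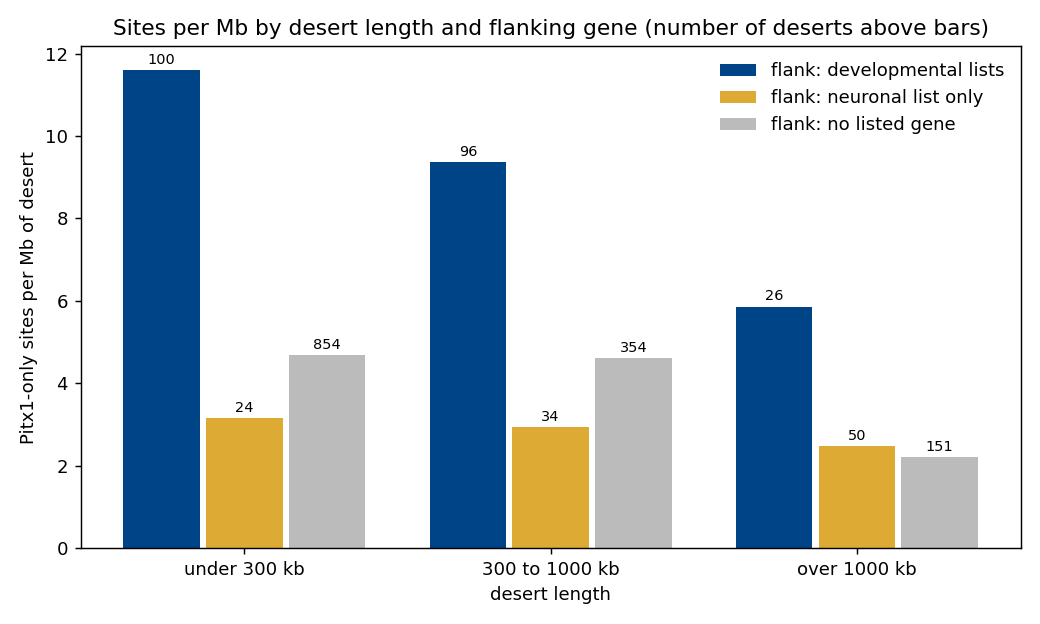
Sites per Mb of desert, pooled over deserts in 3 classes of length and 3 kinds of flanking gene, with the number of deserts above each bar. In each class of length the bar for developmental lists is the tallest, at 11.6, 9.36 and 5.86 sites per Mb. Deserts of chromosomes X and Y are included.

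The higher density beside developmental genes was present in each class of length, with the deserts of chromosomes X and Y kept in. In deserts under 300 kb it was 11.6 sites per Mb beside developmental genes, 3.17 beside neuronal genes alone and 4.69 beside no listed gene. Between 300 and 1000 kb the values were 9.36, 2.94 and 4.62. Over 1000 kb they were 5.86, 2.48 and 2.21. Of the deserts over 1000 kb, 1 of 26 beside a developmental gene (3.85%, exact 95% interval 0.0973 to 19.6) held no site. The number was 3 of 50 (6%, 1.25 to 16.5) beside neuronal genes alone and 49 of 151 (32.5%, 25.1 to 40.5) beside no listed gene. The comparison by length was not repeated without chromosomes X and Y, so their part in these values was not tested.

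Genes that set hindlimb identity or start the limb flank 5 deserts, with 13 sites (5.18 per Mb). The desert beside Pitx1 itself, toward Macroh2a1, is 37.4 kb long and held 3 sites, at chromosome 13 positions 55958537, 55961146 and 55962353. Their scores were 2.45, 23.8 and 43.2, and their further scores 68.0, 58.8 and 407. They lie 122 to 126 kb from Pitx1 and 111 to 115 kb from Macroh2a1, which is the nearer gene for each, and the desert held no Tbx5 summit. Isl1, which acts in hindlimb initiation, had 2 sites toward Itga1 and 3 toward Parp8, with scores of at most 23.8. The 31.3 kb desert between Tbx5 and Rbm19 held none.

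A total of 164 genes had sites in the deserts on both sides. Chosen after their values were seen, the fullest were Adgrl2 with 47 sites, Zfp608 with 43, Epha4 with 36, Flrt2 with 31 and Mctp2 with 27. For Epha4 33 of these lay on 1 side and 3 on the other, whereas for Adgrl2 the sides held 23 and 24. Cdh11, a cadherin of mesenchyme and bone, had 8 and 13.

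Some sites had a close neighbour. Among sites with another in the same desert, the median gap to the nearest one was 32.1 kb, with quartiles of 9.81 and 91.8 kb. The 234 sites alone in their desert have no such gap and are left out of these values. Of the 3113 sites, 726 (23.3%, exact 95% interval 21.8 to 24.8) had another within 10 kb, and 46 (1.48%) within 1 kb. Whether summits this close belong to the same peak was not tested. No such shares are given here for Pitx1-only summits outside deserts. Chaining sites at most 10 kb apart gave 259 pairs and 63 groups of 3 or more, which held 208 sites. The biggest was a run of 6 sites in 20.8 kb between Thap1 and Zfp703, a zinc finger gene, with a highest score of 158. Groups of 5 lay in Trim52 to Slitrk1 (8.79 kb), Gas1 to Dapk1 and Sall1 to Tox3.

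Sites in groups of 3 or more had a median score of 23.8 (95% interval of the median 19.7 to 29.9), against 19.7 (18.9 to 20.5) for the rest, so the intervals overlap. Such intervals treat sites as draws from 1 list and cover no other error. Of the groups of 4, the following were named after their values were seen. A group within 7.37 kb lay between Icos and Pard3b, with a highest score of 53.4. Between Maf, a transcription factor gene of cartilage and lens, and Dynlrb2, 4 sites within 12.7 kb reached 100.1 and had a median of 48.0.

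The sites scored somewhat higher than Pitx1-only summits of the second list elsewhere. Their median score was 19.7 (95% interval 18.9 to 21.3), with quartiles of 10.2 and 39.3. It was 17.4 (16.6 to 18.1) for 3710 summits outside genes but within 100 kb of one, 17.4 (16.6 to 18.1) for 6424 inside genes and 15.8 (15.1 to 17.4) for 1403 within 1 kb of a gene end. The further score had the same order at its ends, with a median of 103 in deserts and 79.6 at gene ends. Being in the second list becomes more frequent with the score, so these values describe the sites and were not tested.

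**Figure D5:**
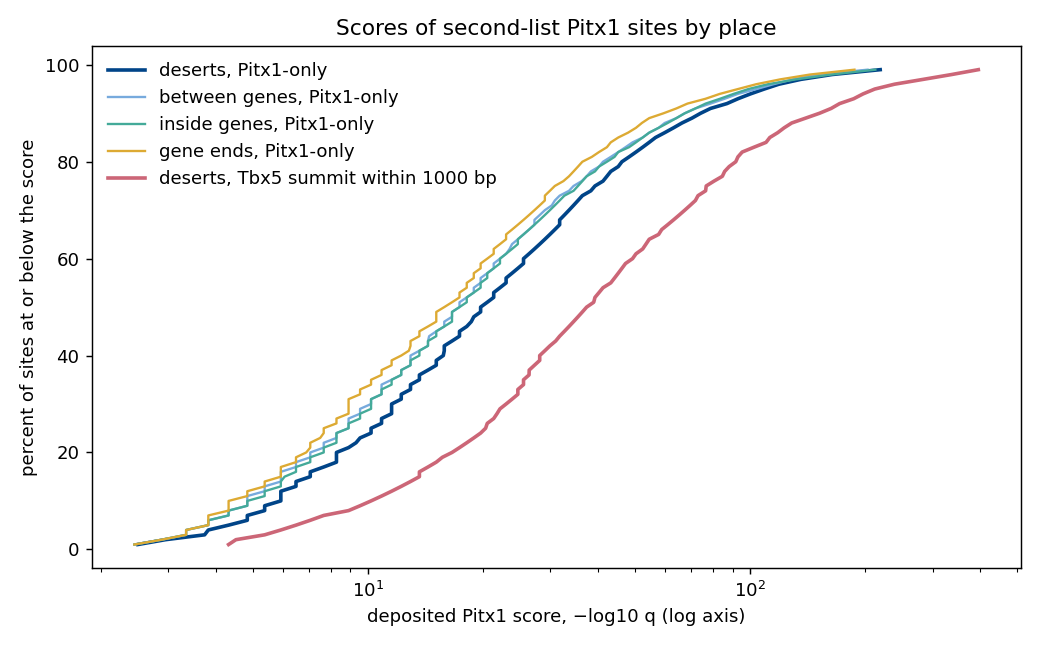
Percent of second-list Pitx1 summits at or below a deposited score, on a log axis, by place. The curve of the desert sites lies to the right of those for Pitx1-only summits between, inside and at the ends of genes, and to the left of that for desert summits with a Tbx5 summit within 1000 bp. The medians are 19.7 for the sites, 17.4, 17.4 and 15.8 for the other places, and 37.3 with Tbx5.

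Desert summits that were shared with Tbx5 scored higher than the sites. The 820 had a median of 37.3 (95% interval 33.6 to 41.2) and a median further score of 165, against 19.7 and 103. The 5668 desert summits without Tbx5 that were not in the second list had a median of 5.37. Of the sites, 889 (28.6%) were in the top 10% of the longer list, which starts at a score of 35.4. This is close to the share over the whole second list, 29.4% (exact 95% interval 28.7 to 30.1), which includes summits shared with Tbx5. Among the 11537 Pitx1-only summits of the second list outside deserts the share was lower, at 24.7% (exact 95% interval 23.9 to 25.5). A score of 200 or more was found at 40 sites. At the low end 243 scored under 5.

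Desert summits were in the second list more often than the whole list was, 38.7% (exact 95% interval 37.8 to 39.7) against 32.4%. Within the highest of 10 classes of score the share was 97.6% in deserts, 95.05% inside genes and 75.8% at gene ends. In the next class it was 81.5%, 75.8% and 49.0%. In lower classes deserts and gene bodies were closer or in the other order, with 36.1% and 36.2% in class 7 of 10 and 8.79% and 11.1% in class 3. No label or header says how the authors chose the second list.

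Most sites were far beyond the limit of 100 kb. The median distance to a protein-coding gene was 235 kb, and 41.6% of sites lay between 100 and 200 kb, 41.7% between 200 and 500 kb and 12.8% between 500 and 1000 kb. A further 119 sites (3.82%) lay over 1000 kb away. Their median score, 15.1 (95% interval 12.9 to 20.5), had an interval that overlapped that of the sites between 100 and 200 kb, 18.9 (18.1 to 20.5). The median was highest between 200 and 500 kb, at 21.3 (20.5 to 23.0), and was 17.4 (15.1 to 21.3) between 500 and 1000 kb. The farthest was 2220.1 kb from a gene, between Celf4 and Pik3c3, and scored 4.84. Another, 2126 kb from Olfm4 and 2294 kb from Pcdh17, scored 199 with a further score of 1272.

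Tbx5 summits lay in many of the same deserts although not at the sites. Of the 776 deserts with sites, 532 also held a Tbx5 summit, and of the 64 with 10 or more sites all but 1 did. Of the 913 deserts without sites, 775 had no Tbx5 summit. Spearman's rho between the counts of sites and of Tbx5 summits was 0.673 across 1689 deserts, and between their densities in the 474 deserts over 500 kb it was 0.708. Both counts come from 1 sample each, share desert length and are low on chromosomes X and Y, which were kept in. The median site was 53.4 kb from a Tbx5 summit, 276 sites lay between 1 and 5 kb from one, and 1103 over 100 kb.

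The balance between the factors varied among the full deserts, which were picked by their count of sites. The whole Tbx5 list holds 10273 summits, against 17783 in the second Pitx1 list. Zfp608 to Gramd3 held 31 Tbx5 summits beside 26 sites, and 16 other second-list Pitx1 summits there had Tbx5 within 1000 bp. Slc4a3 to Epha4 held 22 beside 33 sites, with 12 shared, and Zeb2 to Acvr2a held 18 beside 25, with 3 shared. Fn1 to Mreg held 3 Tbx5 summits beside 15 sites, with none shared, and Dusp10 to Hlx 5 beside 20. In all, 465 sites (14.9%) lay in 244 deserts without any Tbx5 summit.

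Among second-list Pitx1 summits of any place, those in deserts had Tbx5 within 1000 bp most often. The share was 20.8% (exact 95% interval 19.6 to 22.2) in deserts, 18.4% (17.3 to 19.6) outside genes within 100 kb, 17.0% (16.2 to 17.8) inside genes and 10.3% (8.83 to 11.9) at gene ends. In deserts it was 9.68% in the lowest of 5 classes of score and 36% (32.9 to 39.2) in the highest. In that highest class it was 32.1% outside genes within 100 kb, 29.7% inside genes and 15.7% at gene ends. In the class below the order differed, with 23.6% in deserts and 25.5% outside genes within 100 kb.

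Deserts hold genes that do not code for protein, and 572 sites (18.4%, exact 95% interval 17.0 to 19.8) lay inside one. Such genes cover 11.1% of the desert length, with chromosomes X and Y included, which hold few or no sites. The share of length without those chromosomes is not given here. In 559 cases the gene was an lncRNA gene, and 406 genes held at least 1 site. Those with most sites, picked from the counts, follow. A930011G23Rik, 432 kb long between Rasgef1b and Vamp9, held 9 sites, and 2610307P16Rik, between Prl5a1 and Sox4, held 8. Mir100hg, the host gene of a microRNA cluster, held 7, with a highest score of 97.7. Gm36743 between Bbs9 and Bmper held 6, of which the highest scored 276.

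Some sites lay close to microRNA genes, of which the examples here were chosen after the distances were seen. The closest was 0.483 kb from Mir125b-1 inside Mir100hg, with a score of 18.9. A site of 28.1 lay 5.76 kb from Mir99a and 6.48 kb from Mirlet7c-1 between Usp25 and Cxadr. Between Rtl1 and Dio3, an imprinted region, a site of 44.2 lay in a run of microRNA genes, 1.95 kb from Mir3072 and 2.14 kb from Mir410.

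Density varied among chromosomes. On the autosomes it ran from 2.94 sites per Mb of desert on chromosome 15 to 6.71 on chromosome 13. Chromosome X held 26 sites in 58.1 Mb of desert, 0.448 per Mb, and chromosome Y held none in 47.3 Mb. All Pitx1 summits in deserts were also sparse on X, 2.15 per Mb against at least 8.94 on the autosomes, and 18.3% of those on X were in the second list, against 32.5% or more on each autosome. Tbx5 summits on X were at 0.0861 per Mb of desert. The parts of read depth, copy number and mappability in this were not tested.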

How the data were processed

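The 2 Pitx1 lists and 1 Tbx5 list of summits on mm10 were used, from 1 sample per factor. The other samples are not analysed here. The submitters' processing notes name HOMER, MACS2 2.1.1.20160309, Bowtie2 2.2.6 and Bowtie 1.1.2 without their roles. Deposited summit scores were taken as −log10 q, which MACS2 writes to summit files, and its lowest value, 1.31 for Pitx1, lies just above 1.30, the −log10 of 0.05. The second Pitx1 list as deposited carries a further score of at least 50.01 and other distances, unexplained and, for the distances, unused. The authors' name for that list ends in rep2, and whether it draws on another library is not stated. Not given in the sources used here: control library, filters and pooling. Read depth is unknown.

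Gene bodies were those of RefSeq on GRCm38.p6 (21896 protein-coding and 28080 other genes). Distances, desert lengths and counts were computed in Python 3.11.15 and tested on simulated data. Shares have exact Clopper-Pearson 95% intervals and medians have order-statistic 95% intervals. They cover the counting of summits only, and no test was run because each factor has 1 sample. Named were the 20 deserts with most sites, the 10 densest, the 10 highest sites by each score and listed genes beside 10 or more sites. Other groups, flanking genes, noncoding genes and microRNA genes were named after their values were seen. Sites, gene lists and rules were chosen with earlier results of these data known. Planned motif counts at the sites were not run, as no genome was used here. Alternatives changed the Tbx5 distance, gene distance, Pitx1 list, gene set, score minimum and chaining gap. Results for some listed genes are not reported here.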

Additional observations from a re-analysis of the deposited data

How the results depend on the processing

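Of 64 values under alternative settings 32 moved by more than their interval or, for counts, 1.5 times, and none can be tested with 1 sample per factor. The fullest desert stayed Slc4a3 to Epha4 except over 200 kb from genes, where Slc10a2 to Efnb2 was first with 25 sites. Of the 20 fullest deserts, 19 remained among the 20 at either other Tbx5 limit, 18 over 50 kb, 17 with the longer list, 15 over 200 kb, 14 at a score of at least 20 and 8 when every gene was counted. With Tbx5 limits of 200 bp and 5 kb only the median gap between sites moved, to 28.6 and 36.6 kb. Over 50 kb from genes the share of sites in the 20 fullest deserts was 10.9%. Over 200 kb there were 1818 sites, 20 between Slc4a3 and Epha4, 35 deserts with 10 or more, 19.5% in the 20 fullest, a median gap of 38.5 kb and 30 groups. With the longer Pitx1 list there were 8781 sites, 82 between Slc4a3 and Epha4, 310 deserts with 10 or more, a median score of 7.07, a median gap of 10.4 kb and 538 groups. Counting every gene of the table left 564 sites, 19 between Slc4a3 and Epha4, 5 deserts with 10 or more, 27.7% in the 20 fullest, a median further score of 112, a median gap of 41.6 kb and 8 groups. A score of at least 20 left 1555 sites, 19 between Slc4a3 and Epha4, 13 deserts with 10 or more, medians of 39.3 for the score and 168 for the further score, a gap of 46.5 kb, 13 groups, and 53.8% of full deserts beside a developmental gene. Chaining at 5 and 20 kb gave 20 and 129 groups. The longer list has no further score, and the planned motif counts and their shorter window were not run. No paired analysis was possible because each factor has 1 sample and the labels carry no replicate numbers.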
